A study of Mus musculus with 8 samples.

Results

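The 8 genes described here, Pdgfra, Tcf21, Dpt, Thy1, Pi16, Medag, Abca8a and Gsn, mark fibroblasts in heart tissue. They were read in RNA of cardiomyocyte (CM) preparations on Illumina MouseRef-8 v2.0 BeadChips, where the fluorescence of beads that carry a probe reports 1 transcript. Members were all probes annotated with 1 of the 8 symbols, which gave 9 of 25697 probes and 8 of 16593 named genes. All 9 probes passed the filter on dim probes, which asked for a detection p below 0.05 on 2 or more of the 8 arrays, as did 14331 probes and 9803 genes in all. The Gsn probe passed through the adult arrays alone.

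Total RNA came from 3 groups of CM-enriched ventricular preparations of mice. Embryonic CMs (labelled ECM, n = 2 arrays) were from fetal hearts at stage E15.5d and normal adult CMs (ACMs, n = 3) from adult control hearts, both of CD1 background. Hypertrophic ACMs (labelled TAC, n = 3) were from adult CD1 mice with a hypertrophic heart, taken 7 days post-op. No surgery is stated for the normal ACMs, so an effect of the operation and one of hypertrophy cannot be told apart. The labels give no transgene, and nothing states that a group's arrays are from different animals. The p-values therefore rest on a spread between samples that could be technical.

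Cardiac fibroblasts descend largely from the epicardium, the outer cell layer of the fetal heart, and lay down the collagen-rich matrix around CMs. After pressure load or injury they divide, make more matrix and take on an activated state. A CM preparation is enriched and not pure, so transcripts of fibroblasts that stay with the CMs are read on the same array. In such bulk RNA, a change in the number of fibroblasts and a change in RNA per fibroblast cannot be told apart. The 18 cardiomyocyte markers on the array, such as Myh6 and Tnni3, all passed the same filter, with summed normalized intensities of 225918 to 337990 per array. The 8 fibroblast markers summed to 312 to 1466, and the 22 fibroblast matrix genes described below to 5073 to 33691. These lists differ in number of genes and in probes, so their sums do not give shares of RNA.

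Every probe was set against the negative controls of its own array, and 41.9% to 51.63% of all probes lay above background on an array. Of the 8 members, 6 and 7 were detected in the embryonic CMs, 5, 8 and 8 in the normal ACMs and all 8 on each hypertrophic array. Levels below are normalized log2 intensities after background correction, and a difference of 1 is a doubling on that scale. Adjusted p-values are from 1 limma fit over all kept probes with Benjamini-Hochberg adjustment, and a member was called where its brightest probe had an adjusted p under 0.05. Medag alone had a further probe.

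Tcf21 encodes a basic helix-loop-helix transcription factor that the mouse embryo needs to form cardiac fibroblasts. Factors of that class bind the letters CANNTG, the E-box. The 250 bases upstream of 3 members are shown since Tcf21 is itself a member, and since these genes differ in both pattern and number of matches. Sequences are from RefSeq (GRCm38.p6), run 5′ to 3′ along the gene's strand and have E-box letters in capitals. Of the 8 members 7 had an entry, and Thy1 had none. Pi16 had a shorter window, which held no match, and those of Pdgfra, Medag and Abca8a started inside the annotated gene and are not shown. Gsn had further entries that also started inside the gene, so its matches below describe the printed window alone.

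Dpt, chr1:164796413-164796662, plus strand, ends next to the gene: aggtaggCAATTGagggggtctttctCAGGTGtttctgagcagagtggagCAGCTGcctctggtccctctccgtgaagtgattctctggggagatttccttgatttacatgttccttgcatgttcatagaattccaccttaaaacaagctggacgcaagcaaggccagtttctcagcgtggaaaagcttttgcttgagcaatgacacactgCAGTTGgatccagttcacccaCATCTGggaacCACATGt
Gsn, chr2:35256109-35256358, plus strand, ends next to the gene: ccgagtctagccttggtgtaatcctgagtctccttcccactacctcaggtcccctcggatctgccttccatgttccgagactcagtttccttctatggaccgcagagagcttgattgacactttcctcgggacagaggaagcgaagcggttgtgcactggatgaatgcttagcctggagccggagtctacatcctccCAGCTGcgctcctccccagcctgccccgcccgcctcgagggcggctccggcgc
Tcf21, chr10:22820144-22820393, minus strand, ends next to the gene: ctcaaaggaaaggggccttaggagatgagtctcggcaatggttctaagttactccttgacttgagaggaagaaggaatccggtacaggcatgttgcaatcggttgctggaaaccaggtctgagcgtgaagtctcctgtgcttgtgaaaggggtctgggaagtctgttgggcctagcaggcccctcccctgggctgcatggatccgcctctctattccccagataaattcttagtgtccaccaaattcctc

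The Dpt window held 6 matches to CANNTG, at positions 8, 27, 51, 212, 233 and 244 counted from its 5′ end, and the Gsn window held 1, at position 198. No match lay in the Tcf21 window. Of 32817 windows of this length, 66.2% held CANNTG on either strand and 0.27% held 6 or more. The cut of 6 was the count of the Dpt window itself, so the last share is no test of that window. The form CAGCTG, a subset of CANNTG, was present once in Dpt and once in Gsn and in 13% of all windows. TATAAA (12.4% of windows), the AP-1 letters TGANTCA (6.8%) and the TEAD letters CATTCC (12.6%) were in none of the 3 on either strand. A match is a description of the letters, not a bound site.

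**Figure D1:**
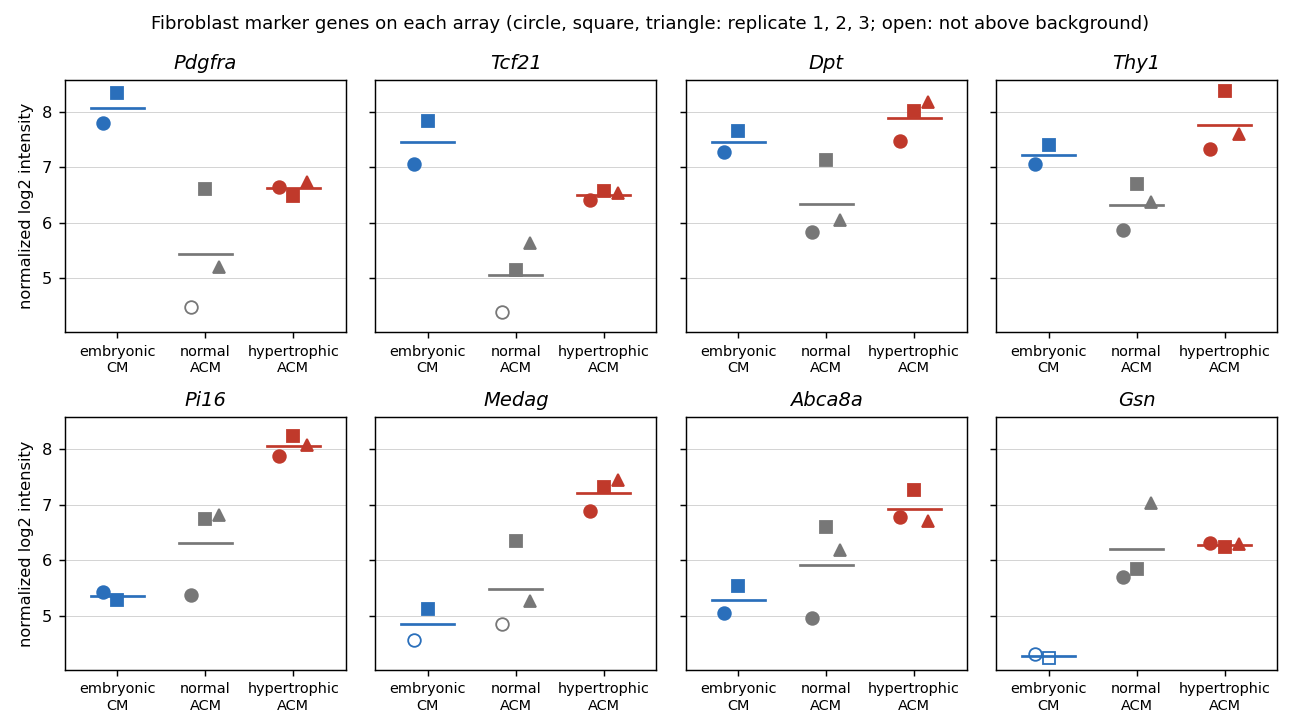
Normalized log2 intensity (vertical axis, no unit) of each fibroblast marker gene on the 8 arrays, by group. Circles, squares and triangles are replicates 1, 2 and 3, horizontal lines are group means and open symbols are arrays where the probe was not above background. Pdgfra and Tcf21 are highest in the embryonic CMs, Pi16, Medag and Abca8a in the hypertrophic ACMs, and Gsn is not above background on either embryonic array.

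Pdgfra encodes the alpha receptor for platelet-derived growth factors, a receptor tyrosine kinase of mesenchymal cells. Its level was 7.79 and 8.35 in the embryonic CMs, 4.48, 6.62 and 5.20 in the normal ACMs and 6.64, 6.49 and 6.74 in the hypertrophic ACMs. Both embryonic arrays lay above every adult array, and normal replicate 2 lay among the hypertrophic arrays while normal replicate 1 was not above background. Embryonic CMs were higher than normal ACMs by 2.64 (SE 0.50, adjusted p = 0.00214), which is 6.23-fold, and higher than hypertrophic ACMs by 1.45 (SE 0.50, adjusted p = 0.0447). The second of these calls was lost without either embryonic array, any hypertrophic array or normal replicate 3, where the adjusted p ran from 0.061 to 0.212. Hypertrophic and normal ACMs differed by 1.19 (SE 0.45, adjusted p = 0.186), which did not pass, and by 1.80 (adjusted p = 0.00848) without normal replicate 2.

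Tcf21 followed the same order of groups. It read 7.07 and 7.84 in the embryonic CMs, 4.39, 5.15 and 5.64 in the normal ACMs and 6.41, 6.57 and 6.54 in the hypertrophic ACMs. No group overlapped another, and normal replicate 1 was again not above background. The level in embryonic CMs was above that in normal ACMs by 2.40 (SE 0.35, adjusted p = 0.00047), or 5.27-fold. In hypertrophic ACMs it was above normal by 1.45 (SE 0.32, adjusted p = 0.0352), or 2.74-fold. Embryonic against hypertrophic gave 0.95 (SE 0.35, 95% interval 0.15 to 1.74, adjusted p = 0.0585), which did not pass. It did pass at 1.78 (adjusted p = 0.000266) under median scaling in place of quantile normalization, where the median of all genes moved to 0.48. It also passed with no background correction (adjusted p = 0.0233), with only both groups in the fit (0.0122) and without embryonic replicate 1 or normal replicate 1 or 3 (0.0194 to 0.0356).

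Dpt encodes dermatopontin, a matrix protein that binds decorin and aids the assembly of collagen fibrils. Levels were 7.27 and 7.65 in the embryonic CMs, 5.83, 7.14 and 6.06 in the normal ACMs and 7.48, 8.01 and 8.19 in the hypertrophic ACMs. The normal ACMs lay below every array of the other groups, which overlapped each other, and normal replicate 2 came within 0.13 of the lower embryonic array. Embryonic CMs exceeded normal ACMs by 1.12 (SE 0.38, adjusted p = 0.0361) and hypertrophic ACMs did so by 1.55 (SE 0.34, adjusted p = 0.0355), which are 2.17-fold and 2.93-fold. Between embryonic and hypertrophic the difference was -0.43 (SE 0.38, 95% interval -1.28 to 0.42), with no settled direction, since median scaling gave 0.41. For embryonic against normal median scaling gave 2.04 (adjusted p = 0.00197), where the median of all genes moved to 0.52. The intensities before normalization, 379.2 and 396.9 against 196.9, 284.0 and 319.5, had the embryonic arrays higher.

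Thy1 encodes a glycoprotein anchored to the outer membrane of fibroblasts, and also of T cells and neurons. Its values were 7.07 and 7.40 in the embryonic CMs, 5.87, 6.70 and 6.37 in the normal ACMs and 7.34, 8.37 and 7.61 in the hypertrophic ACMs. As for Dpt, all normal arrays were lowest and the other groups overlapped. Thy1 was higher in embryonic than in normal CMs by 0.92 (SE 0.34, adjusted p = 0.0492), or 1.89-fold. That difference was 1.87 (adjusted p = 0.00127) under median scaling and 0.51 (adjusted p = 0.0915), no longer called, with no background correction. Hypertrophic ACMs were above normal by 1.46 (SE 0.30, adjusted p = 0.0289), or 2.75-fold. The embryonic level less the hypertrophic level was -0.54 (SE 0.34, 95% interval -1.30 to 0.21), and 0.31 under median scaling.

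Pi16 encodes peptidase inhibitor 16, a secreted or membrane-bound protein that marks fibroblasts around vessels in mice. The arrays read 5.42 and 5.29 in the embryonic CMs, 5.37, 6.74 and 6.82 in the normal ACMs and 7.89, 8.24 and 8.08 in the hypertrophic ACMs. Every hypertrophic array lay at least 1 unit above every other, and normal replicate 1 lay between the embryonic arrays. Hypertrophic ACMs exceeded normal ACMs by 1.75 (SE 0.35, adjusted p = 0.0241), or 3.37-fold. Embryonic CMs were below hypertrophic ACMs by 6.56-fold, a log2 difference of -2.71 (SE 0.39, adjusted p = 0.000492). Against normal ACMs the embryonic difference of -0.96 (SE 0.39, adjusted p = 0.0701) did not pass. It was -1.45 (adjusted p = 0.00059) without normal replicate 1 and -0.19 (adjusted p = 0.702) under median scaling.

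Medag is named for a role in adipocyte formation, which in mice it promotes. The brighter of its probes gave 4.57 and 5.12 in the embryonic CMs, 4.85, 6.34 and 5.27 in the normal ACMs and 6.88, 7.32 and 7.45 in the hypertrophic ACMs. Replicate 1 of the embryonic and of the normal group was not above background, and the hypertrophic arrays lay above all others. Hypertrophic ACMs were 3.32-fold above normal, a log2 difference of 1.73 (SE 0.36, adjusted p = 0.0291). Embryonic CMs were 5.18-fold below hypertrophic ACMs, a log2 difference of -2.37 (SE 0.40, adjusted p = 0.00131). The embryonic difference from normal, -0.64 (SE 0.40, adjusted p = 0.223), did not pass. On the dimmer probe the drop in embryonic against hypertrophic was called too, at -2.24 (SE 0.46, adjusted p = 0.00407), while hypertrophic against normal gave 1.28 (SE 0.42, adjusted p = 0.13) with overlapping groups, so the probes disagreed on that call.

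Abca8a encodes a transporter of the ATP-binding cassette family. It read 5.05 and 5.53 in the embryonic CMs, 4.96, 6.61 and 6.19 in the normal ACMs and 6.78, 7.27 and 6.70 in the hypertrophic ACMs. The hypertrophic arrays were highest, by 0.09 at the nearest pair, and the other groups overlapped. Only the drop in embryonic against hypertrophic passed, at -1.63 (SE 0.43, adjusted p = 0.0136), or 3.09-fold, and it was lost without embryonic replicate 1 (-1.34, adjusted p = 0.0945), under median scaling (-0.97, adjusted p = 0.0655) and with the authors' normalized values (-2.20, adjusted p = 0.0646). Hypertrophic against normal was 1.00 (SE 0.38, 95% interval 0.14 to 1.86, adjusted p = 0.194). Embryonic against normal was -0.63 (SE 0.43, adjusted p = 0.266), 0.02 under median scaling and -1.13 (adjusted p = 0.0116) without normal replicate 1.

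Gsn encodes gelsolin, which severs and caps actin filaments within cells and is also secreted into plasma. Levels were 4.30 and 4.23 in the embryonic CMs, not above background on either array, then 5.71, 5.85 and 7.04 in the normal ACMs and 6.32, 6.24 and 6.29 in the hypertrophic ACMs. Normal replicate 3 stood above all other arrays, and the remaining normal arrays lay below the hypertrophic ones. Embryonic against normal gave -1.93 (95% interval -2.71 to -1.15, adjusted p = 0.00155) and embryonic against hypertrophic -2.02 (95% interval -2.80 to -1.23, adjusted p = 0.00149). With a floor of the lowest signal among detected probes on each array, the embryonic mean lay at least 3.09-fold and 3.28-fold lower. Those bounds allow for undetected signal and not for the spread between arrays. Embryonic against normal was -1.57 without normal replicate 3 and -0.74 with no background correction. The measured means were 4.27, 6.20 and 6.28. Hypertrophic and normal ACMs differed by 0.09 (SE 0.31, 95% interval -0.61 to 0.79, adjusted p = 0.916), and the sign turned without normal replicate 1 or 2.

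**Figure D2:**
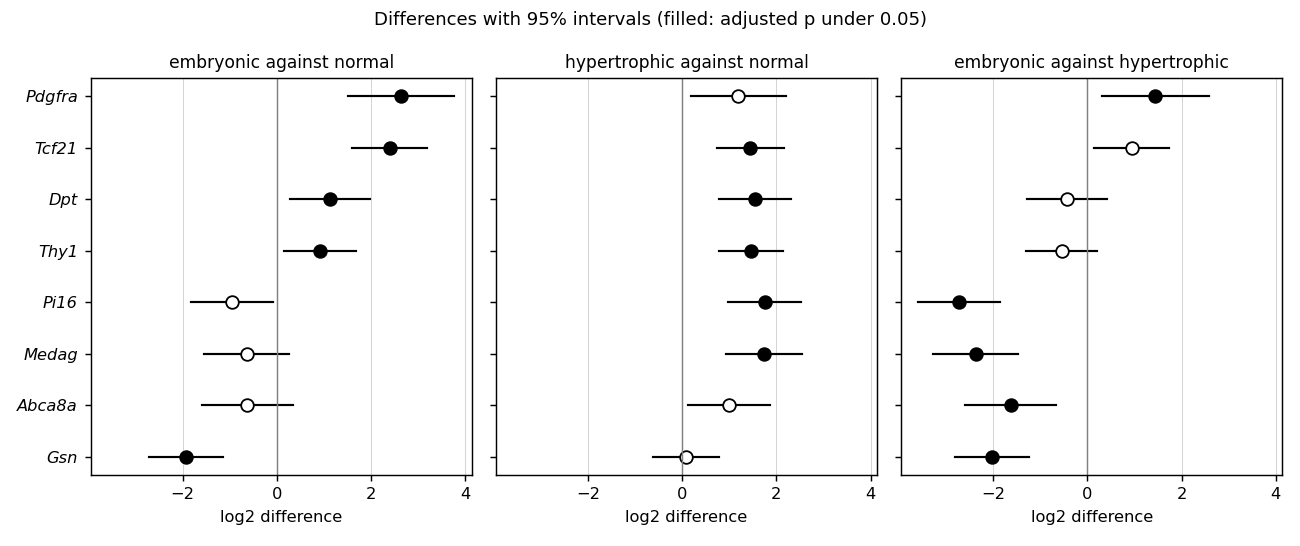
Log2 difference (horizontal axis) of each fibroblast marker gene in the 3 comparisons, with its 95% interval before adjustment. Filled points have an adjusted p under 0.05, so that an open point can have an interval that leaves out 0. In hypertrophic against normal 5 points are filled, from 1.45 for Tcf21 to 1.75 for Pi16, and the Gsn point lies at 0.09.

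In hypertrophic against normal ACMs, 5 of the 8 members were called higher (Tcf21, Dpt, Thy1, Pi16 and Medag) and 0 lower. Of 9803 genes, 3.5% were called higher and 1.43% lower. The members were chosen with earlier results of these data known, so the shares beside their counts are no test. The median log2 difference of the 8 was 1.46, against -0.02 over all genes. In 6 of the 8 every hypertrophic array lay above every normal array, as in 12.3% of all genes. At an unadjusted p under 0.05 in the same limma fit, 7 were higher, with Pdgfra and Abca8a added, and 0 lower. The calls lay near the threshold, and their number depended on single arrays and on the fit. It was 0 without hypertrophic replicate 2 or 3, 1 without normal replicate 1 (Pi16), 2 without normal replicate 3 and 3 without hypertrophic replicate 1. Without normal replicate 2 it was 5, with Pdgfra in and Tcf21 out. Over all genes the number called higher fell from 343 to 142 without hypertrophic replicate 2 and to 175 without replicate 3. With only the 2 groups in the fit the 5 adjusted p-values were 0.0557 to 0.0741, and with the authors' normalized values 0.0637 to 0.121, at differences of 1.68 to 2.20.

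In embryonic CMs against normal ACMs, 4 members were called higher (Pdgfra, Tcf21, Dpt and Thy1), where 25.9% of all genes were, and Gsn alone lower, where 22.4% were. The groups did not overlap for these 5, as for 35% of all genes higher and 31.3% lower. Median differences were 0.14 for the 8 and 0.01 for all genes. Leaving out either embryonic array or normal replicate 1 or 3 left 2 called higher, Pdgfra and Tcf21. Leaving out normal replicate 1 also added Pi16 and Abca8a to those lower. In embryonic CMs against hypertrophic ACMs, Pdgfra was called higher and Gsn, Pi16, Medag and Abca8a lower, beside 23.3% and 19.2% of all genes, with medians of -1.08 and 0.02. Tcf21 joined Pdgfra in groups that did not overlap, which 34.9% of all genes showed in that direction and 30.9% in the other. The 3 comparisons share arrays pairwise, so their counts are not separate evidence.

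**Figure D3:**
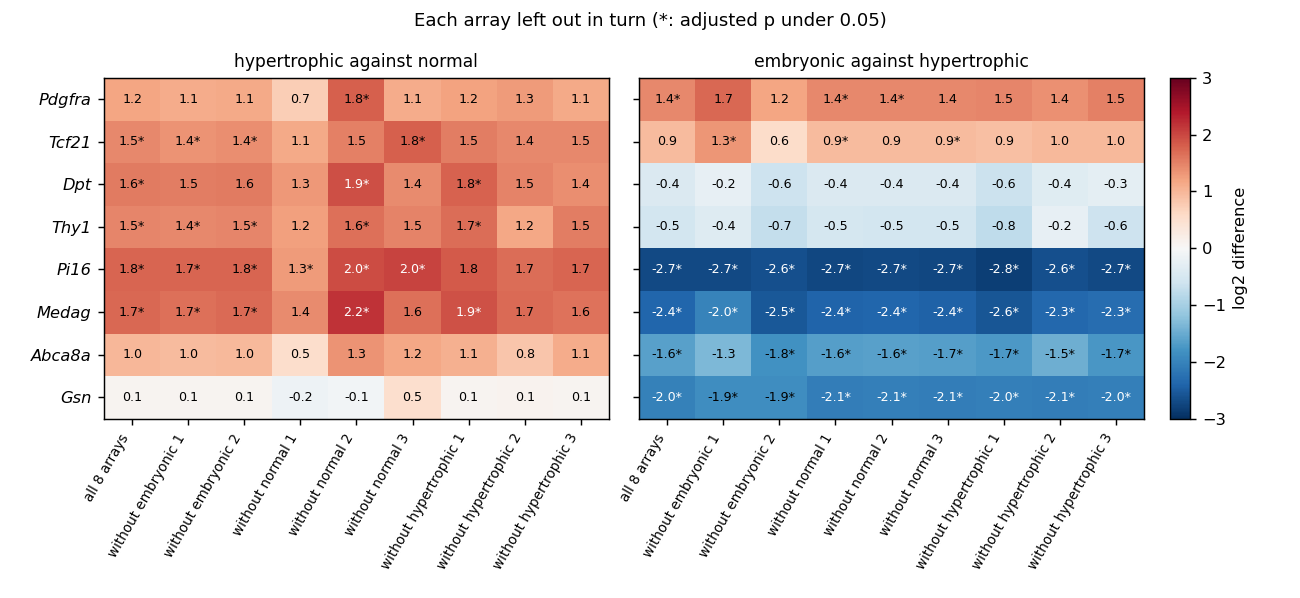
Log2 difference of each fibroblast marker gene (rows) with all 8 arrays and with each array left out in turn (columns), for hypertrophic against normal and embryonic against hypertrophic. Cells are coloured from -3 to 3 and carry the value, with an asterisk where the adjusted p was under 0.05. In the left panel no cell has an asterisk without hypertrophic replicate 2 or 3, and in the right panel Pi16, Medag and Gsn keep theirs in every column.

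Normal replicate 1 was the lowest array of its group for 8 of 8 members. Normal replicate 2 was the highest for 5 (Pdgfra, Dpt, Medag, Abca8a and Thy1) and normal replicate 3 for 3 (Tcf21, Gsn and Pi16). The summed level of the members was 312, 722 and 593 in the normal ACMs, 764 and 1064 in the embryonic CMs and 1071, 1466 and 1315 in the hypertrophic ACMs. Markers of other cells varied within the normal group too. Macrophage and leukocyte markers, such as Lyz2, C1qa and Cd74, summed to 607, 3934 and 1283, and endothelial markers, such as Pecam1 and Cdh5, to 4756, 6920 and 9870. The array lowest in fibroblast markers was thus the lowest in both, and their part in the members' differences was not tested.

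Across the 8 arrays, which fall into 3 groups and are therefore no independent points, the members paired by pattern. Pearson's r of the log2 level was 0.89 between Pdgfra and Tcf21, 0.92 between Dpt and Thy1, 0.94 between Pi16 and each of Medag and Abca8a, and -0.70 between Pdgfra and Gsn. Among all 9803 genes, the 3 most like Thy1 were Col15a1 (r = 0.97), Ddah1 (0.97) and Atp8b1 (0.96), and the 3 most like Tcf21 were Nid1 (0.98), Reep3 (0.98) and Arpc1b (0.98). Col15a1 encodes a basement membrane collagen and Nid1 the basement membrane protein nidogen. Cygb and Grk5 were among the 3 most like both Pi16 (0.97 and 0.96) and Medag (0.97 and 0.99), with Apod (0.97) for Pi16 and Rnf103 (0.98) for Medag. Cygb encodes cytoglobin and Apod apolipoprotein D. For Dpt these were P4hb (0.97), Uap1l1 (0.96) and Rab31 (0.96), and for Abca8a Serping1 (0.97), Vps28 (0.97) and Grina (0.97). Pdgfra was most like Eif5, Fbxw17 and Supt6 (0.98 each) and Gsn most like Aifm2, Naxe and Romo1 (0.98 each).

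Fibroblasts are better known by the matrix they make, and 22 of 25 listed matrix genes had a kept probe. In hypertrophic ACMs 18 of the 22 were higher than in normal ACMs and 0 lower, with a median difference of 2.34. Mfap4, a microfibril protein, was higher by 4.0 (SE 0.23), elastin (Eln) by 3.41 (SE 0.21) and the collagen gene Col5a1 by 3.32 (SE 0.23), and Lox, a cross-linking enzyme of matrix fibres, by at least 14.6-fold. In embryonic CMs 17 were higher than in normal ACMs, led by Eln at 5.82 (SE 0.24) and Col5a1 at 4.67 (SE 0.26), and 1 lower, the proteoglycan gene Ogn at -3.28 (SE 0.19). Embryonic against hypertrophic gave 2 higher and 3 lower, with Ogn at -2.76 (SE 0.19) and the microfibril gene Mfap5 at -2.95 (SE 0.37). The summed level of the list was 29074 and 30250 in the embryonic CMs, 5073, 6924 and 7952 in the normal ACMs and 19067, 33691 and 26051 in the hypertrophic ACMs, with no normal array near the others. No count of 18 or 17 moved by over 1.5 times when an array was left out. Of all genes, 3.5% were higher and 1.43% lower in hypertrophic against normal, and 25.9% and 22.4% in embryonic against normal. In embryonic against hypertrophic 23.3% were higher and 19.2% lower, larger shares than in this list.

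Of 32 other fibroblast markers, 23 were kept, and Ddr2, Fibin and Ms4a4d were below background on every array. Hypertrophic against normal gave 7 higher and 0 lower with a median of 0.59, among them the calcification inhibitor gene Mgp at 3.25 (SE 0.25), Serpinf1 at 3.17 (SE 0.34) and the gelatinase gene Mmp2 at 2.33 (SE 0.29). Embryonic against normal gave 9 higher, such as the growth factor binding protein gene Igfbp4 at 4.29 (SE 0.31) and vimentin (Vim) at 4.97 (SE 0.41), and 5 lower, such as Hsd11b1, which regenerates glucocorticoid, at -2.18 (SE 0.34). Embryonic against hypertrophic gave 2 higher and 7 lower, with Hsd11b1 at -2.99 (SE 0.34) and Pcolce2, an enhancer of procollagen processing, at least 7.65-fold lower, though median scaling gave 9 higher. For the embryonic comparison with normal, 22.4% of all genes were lower and 25.9% higher. For embryonic against hypertrophic 19.2% were lower and 23.3% higher, and for hypertrophic against normal 1.43% and 3.5%.

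Markers of activated fibroblasts had 14 of 20 genes kept, and Cthrc1, Cilp, Thbs4, Ltbp2 and Ckap4 were below background on every array. Postn was not kept either, with no probe above background on 2 or more arrays. In hypertrophic against normal ACMs 9 were higher and 0 lower, with a median of 1.45, and 5 were higher with the authors' normalized values. Timp1, an inhibitor of matrix metalloproteinases, was higher by 4.36 (SE 0.31), the secreted glycoprotein gene Fstl1 by 3.68 (SE 0.23) and Ccn5 by 2.30 (SE 0.22), and the matrix gene Tnc was at least 2.64-fold higher. Against normal ACMs, embryonic CMs had 9 higher and 0 lower, with Fstl1 at 4.88 (SE 0.25), Sfrp1, a secreted Wnt modulator, at 4.08 (SE 0.50) and Tnc at no less than 7.18-fold above. Embryonic against hypertrophic gave 4 higher, such as Tnc by 1.44 (SE 0.28), and 3 lower, such as Ccn5 at -2.56 (SE 0.25). Only 1 was lower without either embryonic array. Of all genes, 3.5% were higher and 1.43% lower in hypertrophic against normal, and 25.9% and 22.4% in embryonic against normal. In embryonic against hypertrophic 23.3% were higher and 19.2% lower, near the shares in this list.

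Pdgfra acts with PDGF ligands and a partner receptor, of which 5 of 7 listed genes were kept and Pdgfd was below background on every array. In embryonic against normal CMs, where 25.9% of all genes were higher and 22.4% lower, 3 were higher and 0 lower. These were Pdgfa, the main ligand of this receptor, by 0.98 (SE 0.20), the beta receptor Pdgfrb by 1.07 (SE 0.37) and the coreceptor gene Nrp1 by 1.16 (SE 0.24). Hypertrophic against normal had none called and 1 higher at an unadjusted p under 0.05, Pdgfb at 1.40 (SE 0.36, adjusted p = 0.0666), and 1 called higher without normal replicate 3. Embryonic against hypertrophic had Nrp1 higher by 1.24 (SE 0.24) and Pdgfa by 0.58 (SE 0.20). Of these, 1 alone was called without either embryonic array or hypertrophic replicate 1 or 3. In that comparison 23.3% of all genes were higher and 19.2% lower.

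Gsn belongs to the actin-severing proteins, and 8 of 9 listed relatives were kept. In embryonic against normal 2 of the 8 were higher and 2 lower, near the shares of all genes, 25.9% and 22.4%. Where Gsn was lower in embryonic than in normal CMs, Cfl1 (cofilin) was higher by 3.07 (SE 0.35) and Dstn (destrin) by 2.16 (SE 0.27). Flii at -0.83 (SE 0.18) and Svil at -0.74 (SE 0.23) were lower, though 0 relatives were lower under median scaling and 1 was without embryonic replicate 2 or normal replicate 1 or 3. None was called in hypertrophic against normal, while an unadjusted p under 0.05 gave 4 higher and 1 lower, with 1 called higher without normal replicate 1 or hypertrophic replicate 1, and Cfl1 had 1.18 (SE 0.31, adjusted p = 0.0703).

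**Figure D4:**
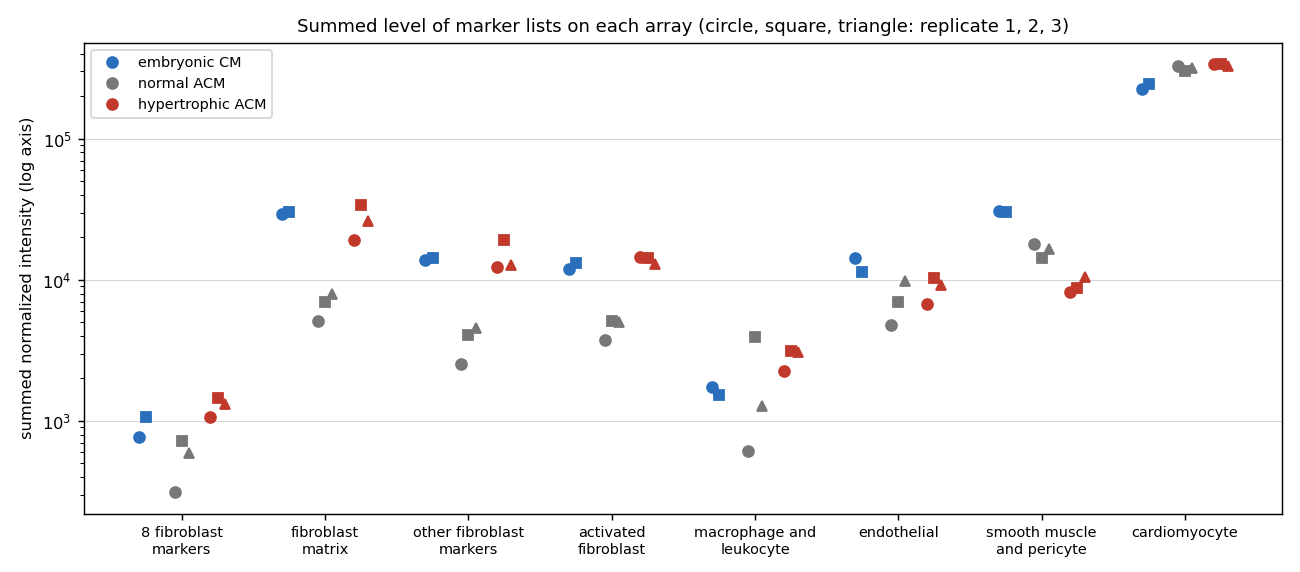
Summed normalized intensity (log axis) of the kept genes of 8 marker lists on each array, with circles, squares and triangles for replicates 1, 2 and 3. All normal arrays lie below all embryonic and hypertrophic arrays for the 8 fibroblast markers and the 3 further fibroblast lists, while macrophage and endothelial markers overlap between normal and hypertrophic ACMs.

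Among the other cells a heart preparation could hold, epicardial markers had 5 of 10 kept genes higher in embryonic than in normal CMs, with the transcription factor gene Wt1 at 3.08 (SE 0.49), and 2 or 3 without an embryonic array or normal replicate 3. In hypertrophic against normal none was called and 1 was higher at an unadjusted p under 0.05, Wt1 at 1.35 (SE 0.44, adjusted p = 0.131), with 1 called without hypertrophic replicate 1. Endothelial markers, 16 kept, had 9 higher and 2 lower in embryonic against normal (1 lower without embryonic replicate 2). Beside these and the epicardial counts, 25.9% of all genes were higher and 22.4% lower in that comparison. Plvap, a protein of capillary pores, alone was higher in hypertrophic against normal, by 1.56 (SE 0.19), with 2 called without normal replicate 3. An unadjusted p under 0.05 added Vwf, Sox17 and Eng, for 4 higher and 0 lower, and the median of the 16 was 0.60, or 0.09 without normal replicate 1, 0.35 without hypertrophic replicate 2 and 0.94 without normal replicate 3. Smooth muscle and pericyte markers, 11 kept, had 2 lower in hypertrophic than in normal ACMs, Acta2 at -1.12 (SE 0.23) and Abcc9 at -0.83 (SE 0.18). The count was 1 without embryonic replicate 1 or normal replicate 2. It was 0 without normal replicate 1 or 3, hypertrophic replicate 1 or 2 or embryonic replicate 2. Between the adult groups 3.5% of all genes were higher and 1.43% lower in hypertrophic ACMs.

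Macrophage and leukocyte markers had none of 14 called in any comparison, although 3 were higher in hypertrophic against normal at an unadjusted p under 0.05, with Ptprc and Itgam below background on every array. Without normal replicate 2, the array where they summed highest of all 8, 6 of 13 were higher in hypertrophic against normal ACMs and 7 higher and 1 lower in embryonic against normal. Against hypertrophic ACMs, 4 were lower in embryonic CMs without normal replicate 1 or 2, and against normal ACMs 2 were lower without normal replicate 1. Red cell genes had 4 of 5 higher in embryonic CMs than in either adult group (2 of 3 kept without embryonic replicate 2), with summed levels of 33609 and 33709 against 186 to 3453 on the adult arrays. Of the 18 cardiomyocyte markers, 10 were lower and 1 higher in embryonic CMs against normal and against hypertrophic ACMs alike. Of all genes 22.4% and 19.2% were lower and 25.9% and 23.3% higher. Against normal, Tcap was lower at -3.38 (SE 0.24) and Tnni3, the adult cardiac troponin I gene, at -2.18 (SE 0.24). The gene higher was Myh7, the slow myosin heavy chain gene, at 5.35 (SE 0.26) against normal. Between the adult groups Myh7 alone was called, higher by 2.08 (SE 0.23) in hypertrophic ACMs (2 called without normal replicate 1). Of 7 Schwann cell markers Mbp alone was kept, at -0.05 (SE 0.16) in hypertrophic against normal. The part of these other cells in the members' differences was not tested.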

How the data were processed

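Each sample of CM-enriched RNA was read on 1 array. The authors deposited, per probe, a linear mean bead intensity from GenomeStudio (version 2011 in the submitters' processing notes), without background subtraction or normalization. Beside each, the authors deposited a detection p-value against negative-control beads. A second deposited table of intensity values, background-subtracted and quantile-normalized by the authors with settings not given in the sources used here, served as an alternative.

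With limma 3.58.1 in R 4.3.3, neqc corrected the background from the detection p-values (offset 16) and normalized by quantiles on the log2 scale. Kept probes entered 1 model of 3 group means (lmFit, contrasts.fit, eBayes), with Benjamini-Hochberg adjustment over 14331 probes per comparison. The brightest kept probe stood for a gene. Of all probes 23978 had 1 symbol and 1719 none. Identifiers of 23962 matched RefSeq, and 0 symbols changed. A gene not above background on any array of a group got a bound on its fold. It came from the higher of the gene's own signal and the lowest signal among detected probes of each array. Such a bound holds for the group means and carries no sampling error. Arrays number few, which limits precision, and the chip of each was not known.

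The members and all lists were chosen with earlier results of these data known. Shares of all genes beside their counts are therefore a description and no test. Named were every member, the 3 genes most correlated with each member and up to 4 called genes per list and comparison, mostly those with the smallest p. Tnni3 ranked lower in its list. Some genes were named only as examples of a list, as below background or at an unadjusted p. On simulated arrays the fit recovered 47% of 100 probes changed by 1 and 81% of 100 changed by 2 on the log2 scale in embryonic against normal (14517 probes kept, 12 of 140 calls wrong), and 62% and 82% in hypertrophic against normal (14139 probes kept, 9 of 153 wrong). The changed probes were all brighter in normal ACMs than every member, whose highest mean there was 6.34 (Dpt). Recovery at the members' levels was not tested. Alternatives were other background correction, scaling and filters, the authors' values, a fit per gene, a fit of 2 groups, a variance trend, the replicate number as a block and leaving out each array. Figures were drawn with matplotlib 3.10.9 in Python 3.11.15.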

Additional observations from a re-analysis of the deposited data

How the results depend on the processing

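Of the 8 fibroblast markers, the number higher in hypertrophic than in normal ACMs (5) was 0 with the authors' normalized values, 0 with no filter on dim probes and 0 with only the 2 groups compared, and 0 to 5 when 1 array was left out. The number higher in embryonic CMs than in normal ACMs (4) was 2 with the authors' values, 2 with no filter and 2 to 4 with 1 array left out, and the number lower (1) was 1 to 3. For embryonic against hypertrophic, the number higher (1) was 2 with no background correction, 2 with median scaling, 0 with the authors' values, 0 with no filter, 2 with only the 2 groups compared and 0 to 2 with 1 array left out, and the number lower (4) was 3 to 4 throughout. Signs turned for Abca8a in embryonic against normal (0.019 with median scaling), for Gsn in hypertrophic against normal (-0.16 without normal replicate 1, -0.089 without normal replicate 2 and at most 0.51 with another array left out) and, with median scaling, for Dpt (0.41) and Thy1 (0.31) in embryonic against hypertrophic. Median scaling moved the median of all genes to 0.52 in embryonic against normal and 0.48 in embryonic against hypertrophic. The cause of these changes was not tested. Shares of all genes called are not given here for each alternative. From these counts alone, a loss of calls by the members and one over all genes cannot be told apart. Pdgfra, Tcf21 and Gsn in embryonic against normal, and Pi16, Medag and Gsn in embryonic against hypertrophic, kept their calls under all alternatives run.

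Whether replicate numbers pair the samples was not settled. Deviations from the group means correlated between -0.081 and 0.138 for arrays of the same number and between -0.122 and 0.085 for others. The 2 embryonic arrays have mirrored deviations, so their values are not separate. With the replicate block, 2 members were higher in embryonic against hypertrophic, as Tcf21 was added at 1.10 (adjusted p = 0.0171), and no other call of a member changed. Intensities of the members were 88.9 to 580.9 beside array medians of 92.3 to 106.7, so most lay near background.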
